A study of Mus musculus with 12 samples.

Results

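The genes described here encode the CD4 and CD8 coreceptors and 2 further products known from double-positive or immature thymocytes. They are Cd4, Cd8a, Cd8b1, Cd1d1 and Arpp21. Every probe set whose only platform gene symbol is one of these names was taken, which gave 15 of the 45101 probe sets on the array. Arpp21 and Cd8a had 5 probe sets each, Cd1d1 and Cd4 had 2 each and Cd8b1 had 1. Of the 15, 13 probe sets of 4 genes lay above the filter on dim signals, and both Cd4 probe sets fell below it.

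RNA was measured on 12 one-colour oligonucleotide arrays from female C57BL/6 mice aged 5 to 6 weeks. The 3 groups are successive stages of double-negative (DN) thymocytes, sorted as CD44+CD25+ (DN2), CD44-CD25+ (DN3) and CD44-CD25- (DN4), with 4 arrays each. In each of 4 sorts the thymocytes of 4 mice were pooled, so every array is a pool and the same pool gave 1 array of each stage, for 16 mice in all. Before the sort CD4+ and CD8+ cells were removed on magnetic columns, and all 3 groups were then gated against a mix of PE antibodies (anti-NK1.1, anti-gamma-delta receptor, anti-CD3, anti-CD8 and anti-CD4). The transcripts reported below were therefore measured in cells selected for the absence of CD4 and CD8 protein on the surface. The labels give no treatment or transgene for any group, and the sort numbers given below are those of the labels.

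T cell precursors pass the DN stages without CD4 or CD8, and become CD4+CD8+ double-positive cells after a rearranged T cell receptor beta chain has been selected in the pre-T cell receptor. CD8 is a pair of an alpha and a beta chain, encoded by Cd8a and Cd8b1, that binds MHC class I, while CD4 binds MHC class II. In the mouse many thymocytes go through a short stage with CD8 and no CD4 before both are present. Cd4 is held silent in DN cells by a silencer element bound by Runx factors. Double-positive thymocytes display CD1d, the lipid-presenting molecule encoded by Cd1d1, to precursors of natural killer T cells. Arpp21 encodes a cAMP-regulated phosphoprotein with RNA-binding domains that is known in immature thymocytes as TARPP.

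RefSeq start-site sequence was found for 2 of the 5 genes, and the 250 bases before the start are shown because Cd8a rose and 3 probe sets of Arpp21 fell in DN4 relative to DN3. Both are read 5′ to 3′ on the gene's own strand in build GRCm38.p6. The Cd8a window lies at chr6:71373177-71373426 on the plus strand and the Arpp21 window at chr9:112233723-112233972 on the minus strand. Cd8a had 1 window in the table and Arpp21 had 9, of which the most upstream is shown. The annotated Arpp21 gene reaches further upstream, to position 112236288, so this window lies inside its span. Capitals mark matches, on either strand, to motifs of factor families that act in thymocytes. The motifs searched were the E-box CANNTG, the Runx sites TGTGGT and the rarer TGCGGT, the site AGATAA of GATA factors, the TCF/LEF site CTTTGA and the ETS core GGAAG.
Cd8a: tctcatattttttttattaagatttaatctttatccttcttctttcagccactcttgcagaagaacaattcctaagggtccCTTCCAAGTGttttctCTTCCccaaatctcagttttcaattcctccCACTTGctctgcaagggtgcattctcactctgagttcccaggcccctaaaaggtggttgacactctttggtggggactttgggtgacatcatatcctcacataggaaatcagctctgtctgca
Arpp21: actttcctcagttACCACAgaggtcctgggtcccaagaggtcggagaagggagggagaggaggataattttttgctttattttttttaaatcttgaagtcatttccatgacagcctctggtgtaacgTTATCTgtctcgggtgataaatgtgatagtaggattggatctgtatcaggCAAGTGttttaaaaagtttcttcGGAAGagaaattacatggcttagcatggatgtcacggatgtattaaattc
The Cd8a window held 2 E-box and 2 ETS matches, of which the first ETS match shares a base with the first E-box match. The Arpp21 window held 1 match each to the E-box, the Runx site TGTGGT, the GATA site and the ETS core. Among 32851 windows of the same length, 66.2% held an E-box match, 64.1% an ETS match, 14.0% that Runx site and 9.99% the GATA site. These matches describe the letters of the windows, and binding was not measured.

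The Arpp21 gene also contains Mir128-2, which encodes miR-128-3p at chr9:112118644-112118664 (minus strand, GRCm38.p6). Its mature sequence is shown because it shares the host gene, with the seed (bases 2 to 8) in capitals. The array values below belong to Arpp21 messenger RNA and say nothing of the microRNA's level.
miR-128-3p: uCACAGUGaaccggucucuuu

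Values below are signals after quantile normalization of the 12 arrays, given per sort in the order of sorts 1 to 4. Tests were made on log2(signal + 5.56) with limma, and errors of log2 differences are standard errors with n = 4 arrays per stage. Adjusted p-values are Benjamini-Hochberg values over the 24132 probe sets above the filter, with a threshold of 0.05. The filter level is log2 4.70, equal to a signal of 20.5, and a probe set had to exceed it on at least 4 arrays. Where all 4 arrays of a stage lie below that level, a linear fold is given as at least the fold against it. Probe sets of 1 gene share their target and are not replicates, and levels of different probe sets cannot be compared. In RNA from sorted populations, fewer cells with a transcript and less transcript per cell cannot be told apart.

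Between DN4 and DN3 the CD8 genes rose and part of the Cd1d1 and Arpp21 probe sets fell. Of the 15 probe sets 6 were higher in DN4 (5 of Cd8a and the 1 of Cd8b1) and 4 were lower (1 of Cd1d1 and 3 of Arpp21). Of all probe sets tested, 11.2% were called in this comparison, 4.41% as higher and 6.82% as lower. Of the 15, only 2 were called between DN3 and DN2, 1 of Cd8b1 and 1 of Arpp21, both higher in DN3, where 7.11% of all tested were called and 3.15% were called higher. In DN4 relative to DN2, 6 were higher (5 of Cd8a and Cd8b1) and 2, both of Cd1d1, were lower, where 27.1% of all tested were called, 14.1% as higher and 13.0% as lower. Each called difference had the same direction in 4 of 4 sorts. A rise into DN4 was called for the CD8 genes only. The Cd1d1 and Arpp21 probe sets lay above the filter level on all 12 arrays, DN2 included, so these stages do not show when those genes come on. Both Cd4 probe sets failed the filter and could not be called.

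**Figure D1:**
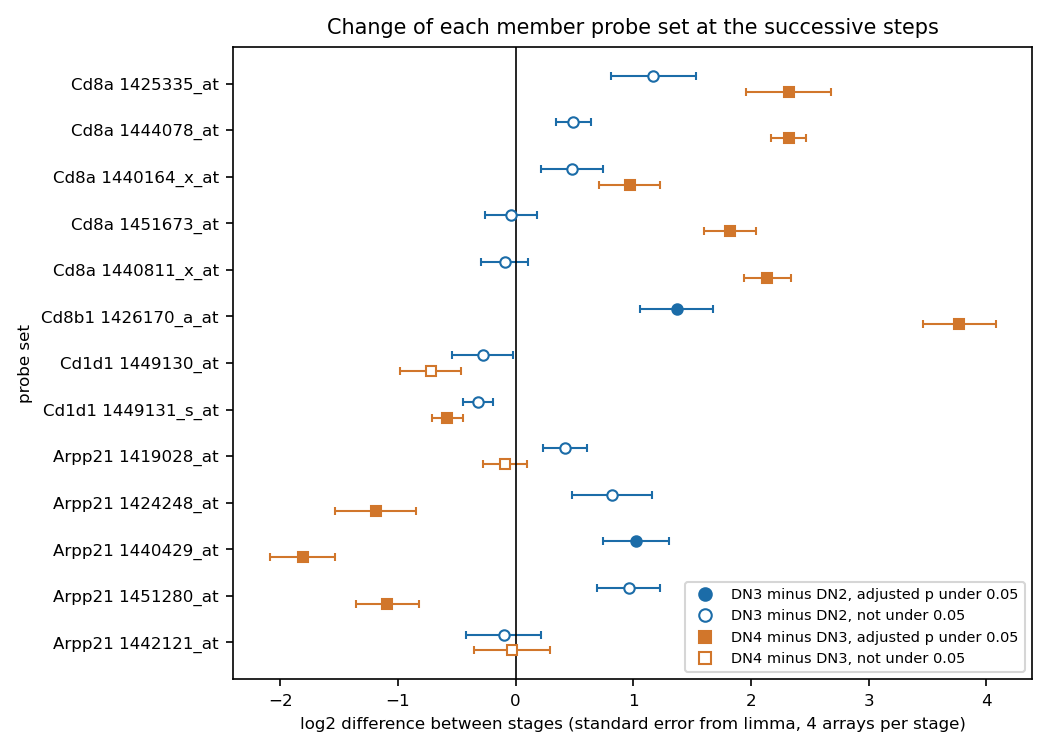
Log2 difference (x axis) of the 13 probe sets above the filter, with circles for DN3 minus DN2 and squares for DN4 minus DN3; bars are standard errors from limma with 4 arrays per stage, and filled symbols have an adjusted p under 0.05. The Cd8a and Cd8b1 squares all lie to the right of 0.9, the Cd1d1 squares lie left of 0, and the 3 filled Arpp21 squares lie left of -1.

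The share of members called must be read against how they entered the test. Cd8a probe sets 1451673_at and 1440811_x_at passed the filter through the DN4 arrays alone. Cd8b1 passed it through the DN4 arrays and 1 DN3 array, Cd8a 1444078_at through DN4 and 2 DN3 arrays, and Cd8a 1425335_at through DN4 and 3 DN3 arrays. None of these reached 4 arrays without DN4, so a difference at DN4 was to be found in them. Their DN4 differences below are a description. Without a filter 6 of the 15 were called between DN4 and DN3, 5 as higher and 1 as lower. Over all probe sets 1376 were then called, 388 as higher and 988 as lower. Medians over all probe sets tested were 0.03, 0.03 and 0.05 for DN3 against DN2, DN4 against DN3 and DN4 against DN2.

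Cd4 transcript was not detected above the filter level at any stage. Probe set 1427779_a_at had signals of 1.09 to 9.41 and probe set 1419696_at of 2.01 to 4.25 over the 12 arrays, all below 20.5. Mean log2 values of 1427779_a_at were 2.98 in DN2, 2.90 in DN3 and 3.30 in DN4, and those of 1419696_at were 3.01, 3.08 and 3.14. The stages overlapped in every comparison of both probe sets. Exact two-sided permutation p-values were 0.0857 and 0.4 for DN4 against DN3, 0.257 and 0.114 for DN4 against DN2, and 0.571 and 0.314 for DN3 against DN2. The smallest p that 4 against 4 arrays can give is 0.0286. At these signals a difference was not detectable, which is not a measure of absence.

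Cd8a, the alpha chain of CD8, was dim or below the filter level in DN2 and highest in DN4 on each of its 5 probe sets. How DN3 compared with DN2 differed between them. For probe set 1425335_at the signals were 16.7, 4.87, 12.4 and 3.08 in DN2, 36.3, 9.88, 27.1 and 38.3 in DN3, and 199, 124, 158 and 129 in DN4. All 4 DN4 arrays lay above every DN3 and DN2 array, while DN3 sort 2 overlapped DN2. The DN4 mean exceeded the DN3 mean by 2.32 ± 0.36 (adjusted p = 0.00218, or 0.00548 without a filter), a 5.01-fold difference. It exceeded the DN2 mean by 3.49 ± 0.36 (adjusted p = 3.22e-05, or 8.43e-05 without a filter), at least 5.95-fold. The DN3 to DN2 difference of 1.17 ± 0.36 did not pass (adjusted p = 0.0773). That difference passed in 2 of 21 alternative fits. These were the sort as a block (adjusted p = 0.0223) and the fit without DN3 sort 2, the lowest DN3 array (1.50, adjusted p = 0.0193).

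Cd8a probe set 1444078_at had the smallest standard error of the 5. Its signals were 12.6, 17.0, 12.5 and 12.9 in DN2, 20.6, 17.5, 27.9 and 20.3 in DN3, and 149, 102, 139 and 132 in DN4. No DN3 array overlapped DN2 and no DN4 array overlapped DN3, although the lowest DN3 signal of 17.5 was just above the highest DN2 signal of 17.0. DN4 exceeded DN3 by 2.32 ± 0.15 (adjusted p = 5.96e-06, 5.01-fold) and DN2 by 2.81 ± 0.15 (adjusted p = 2.04e-07, at least 5.17-fold). The limma fit without a filter gave adjusted p-values of 3.32e-05 and 1.03e-06. The DN3 to DN2 difference of 0.49 ± 0.15 did not pass (adjusted p = 0.0853).

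On the remaining Cd8a probe sets the DN4 arrays were again the highest. Signals of 1440164_x_at were 15.3, 16.2, 25.7 and 33.1 in DN2, 23.1, 42.0, 24.5 and 45.3 in DN3, and 88.2, 56.1, 81.5 and 56.0 in DN4. The DN4 mean differed from the DN3 mean by 0.97 ± 0.26 (adjusted p = 0.0326). This call was lost without DN3 sort 1, DN3 sort 3, DN4 sort 1 or DN4 sort 3, with adjusted p-values of 0.0788 to 0.0950. It was also lost with arrays centred on their median (0.78, adjusted p = 0.0711) and without normalization (0.46, adjusted p = 0.205). Signals of 1451673_at in DN4 were 70.5, 41.5, 59.3 and 60.6, at least 2.40-fold above DN3, where all 4 arrays lay below the filter level. Signals of 1440811_x_at in DN4 were 34.1, 29.1, 28.1 and 29.2, at least 1.36-fold above DN3, where all 4 arrays lay below it too. Across the 12 arrays the 5 probe sets correlated with each other at r of 0.73 to 0.95, a description of arrays that share stages and pools.

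Cd8b1, the beta chain that pairs with the alpha chain in the CD8 of thymocytes, had the largest log2 difference between DN4 and DN2 of the 13 probe sets tested. Signals of its 1426170_a_at were 0.727, 4.54, 8.89 and 1.0 in DN2, 31.0, 11.6, 14.5 and 15.8 in DN3, and 241, 257, 424 and 331 in DN4. The 3 stages did not overlap, but all DN2 arrays and 3 of 4 DN3 arrays lay below the filter level. DN4 exceeded DN3 by 3.77 ± 0.31 (adjusted p = 2.92e-05) and DN2 by 5.14 ± 0.31 (adjusted p = 3.74e-07), at least 11.9-fold. Cd8b1 passed the filter only with the DN4 arrays, so these values are a description. The limma fit without a filter gave adjusted p-values of 8.43e-05 and 1.04e-06. DN3 exceeded DN2 by 1.37 ± 0.31 (adjusted p = 0.0174), and no fold is given for signals so near or below the filter level. That call was lost without DN2 sort 1, DN2 sort 4 or DN3 sort 1, with adjusted p-values of 0.0519 to 0.0578. RefSeq places Cd8b1 next to Cd8a on chromosome 6.

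**Figure D2:**
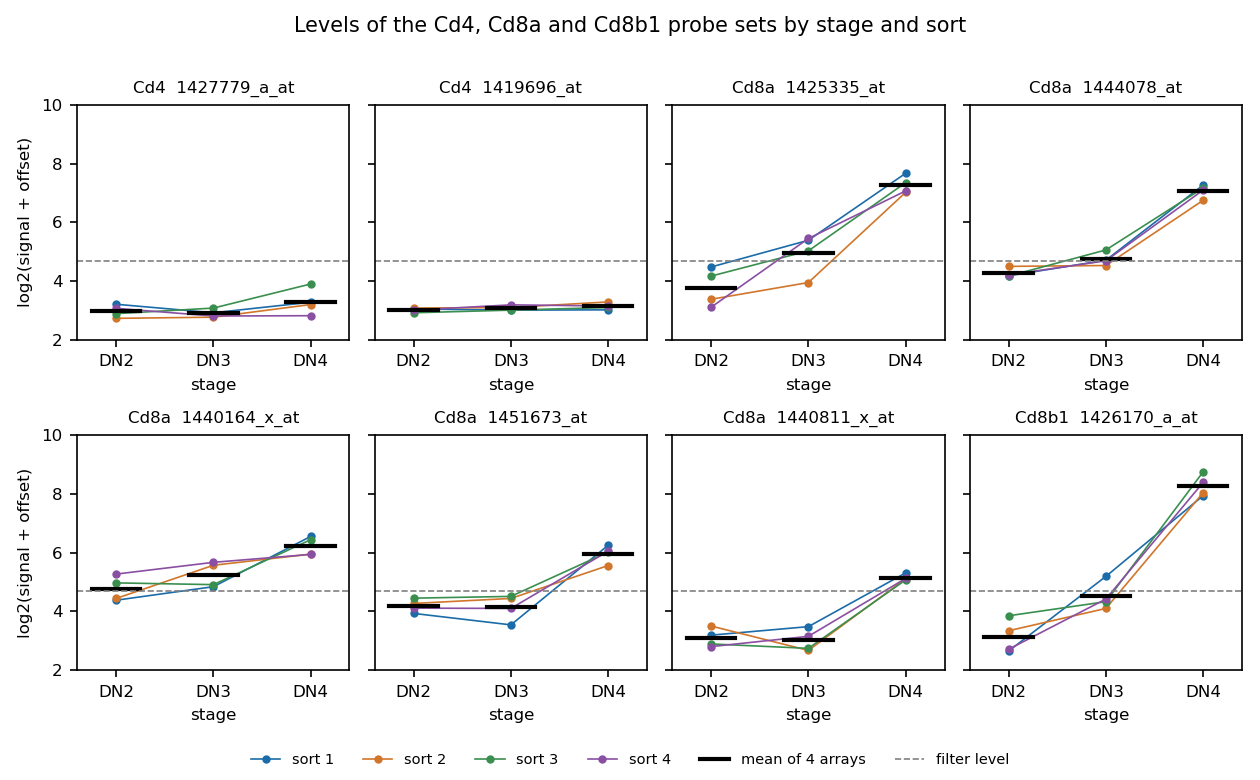
Level of each Cd4, Cd8a and Cd8b1 probe set as log2(signal + offset) (y axis) in DN2, DN3 and DN4; thin coloured lines join the 3 arrays of a sort, black bars are means of 4 arrays and the dashed line is the filter level of 4.70. Both Cd4 probe sets stay below the dashed line on all 12 arrays, and the Cd8a and Cd8b1 probe sets are highest in DN4 in every sort.

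The steps were compared by a contrast of the DN4 minus DN3 difference with the DN3 minus DN2 difference. It was called as higher for 3 Cd8a probe sets and Cd8b1, where 2.90% of all probe sets tested were called and 1.09% were called higher. The value was 1.84 ± 0.27 for 1444078_at (adjusted p = 0.00408), 1.86 ± 0.39 for 1451673_at (adjusted p = 0.0249) and 2.23 ± 0.35 for 1440811_x_at (adjusted p = 0.00582). For Cd8b1 it was 2.40 ± 0.53 (adjusted p = 0.0327), and this call held in 6 of the 12 fits that left out 1 array, with an adjusted p of up to 0.129. For 1451673_at it was lost without DN3 sort 1 (adjusted p = 0.0750) or DN3 sort 4 (adjusted p = 0.0718). For Cd8a 1425335_at it was 1.15 ± 0.63 (adjusted p = 0.424) and for 1440164_x_at 0.49 ± 0.45 (adjusted p = 0.680), neither of which passed. Without normalization the contrast was called for only 1 of these CD8 probe sets, 1440811_x_at, and was lost for 1444078_at (1.28, adjusted p = 0.0664), 1451673_at (1.38, adjusted p = 0.0776) and Cd8b1 (1.80, adjusted p = 0.106). With arrays centred on their median it was lost for Cd8b1 (2.15, adjusted p = 0.0656). Cd8b1 and the Cd8a probe sets 1425335_at, 1444078_at, 1451673_at and 1440811_x_at passed the filter only with the DN4 arrays. For these probe sets the contrast is a description. Where the earlier stages lie below the filter level, these contrasts depend on the offset.

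Cd1d1, which encodes the molecule that presents lipids to natural killer T cells, was bright at all stages and lowest in DN4. Signals of 1449131_s_at were 1250, 1300, 1090 and 989 in DN2, 837, 917, 1050 and 887 in DN3, and 598, 585, 721 and 561 in DN4. Every DN4 array lay below every DN3 array, while DN3 and DN2 overlapped. DN4 was below DN3 by -0.58 ± 0.13 (adjusted p = 0.0171, 1.50-fold) and below DN2 by -0.90 ± 0.13 (adjusted p = 0.000448, 1.87-fold). The DN4 to DN3 call was lost without DN3 sort 2, DN3 sort 3 or DN4 sort 4, with adjusted p-values of 0.0504 to 0.0596. The DN3 to DN2 difference of -0.32 ± 0.13 did not pass (adjusted p = 0.194).

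Cd1d1 probe set 1449130_at varied more between sorts. Its signals were 965, 800, 1900 and 1290 in DN2, 939, 795, 1240 and 933 in DN3, and 473, 509, 777 and 617 in DN4. Sort 3 was the highest at each stage, and each DN4 array was below the DN3 array of its own sort. DN4 was below DN2 by -1.0 ± 0.26 (adjusted p = 0.0130, 2.00-fold). The DN4 to DN3 difference of -0.72 ± 0.26 did not pass (adjusted p = 0.0946) but passed with the sort as a block (adjusted p = 0.00620). DN3 and DN2 differed by -0.28 ± 0.26 (adjusted p = 0.606). For neither Cd1d1 probe set did the later step differ from the earlier one beyond the threshold (adjusted p = 0.719 for 1449130_at and 0.670 for 1449131_s_at).

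The suffix of 1449131_s_at marks a probe set that can match several transcripts, and its neighbour Cd1d2 is a close copy of Cd1d1, so their signals may be shared. The Cd1d2 probe set also fell between DN4 and DN3. Its mean log2 value was 5.38 in DN4, against 6.10 in DN3 and 6.04 in DN2, with differences of -0.72 ± 0.16 from DN3 (adjusted p = 0.0139) and -0.66 ± 0.16 from DN2 (adjusted p = 0.00921). The median signal of the arrays before normalization was 15.1 to 18.0 in DN4, against 19.7 to 25.7 in DN3 and 16.7 to 28.0 in DN2. Without normalization the median difference over all probe sets tested was -0.44 for DN4 against DN3, -0.32 for DN4 against DN2 and 0.13 for DN3 against DN2. Relative to those medians the Cd1d1 falls and the CD8 rises kept their direction.

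Arpp21 did not move as 1 unit across its probe sets. Those called in no comparison, 1419028_at and 1442121_at, did not share a pattern with each other (r = -0.38 over the 12 arrays). Probe set 1419028_at was not called in any comparison. Its signals were 996, 1060, 1680 and 1370 in DN2, 1260, 1850, 1990 and 1690 in DN3, and 1460, 1580, 1610 and 1650 in DN4. The stages overlapped, with differences of -0.09 ± 0.19 between DN4 and DN3 (adjusted p = 0.812), 0.33 ± 0.19 between DN4 and DN2 (adjusted p = 0.207) and 0.42 ± 0.19 between DN3 and DN2 (adjusted p = 0.221). Probe set 1442121_at had signals of 24.2 to 93.1 over the 12 arrays and differences of -0.03 ± 0.32, -0.13 ± 0.32 and -0.10 ± 0.32 for the same comparisons, none of which passed.

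The other three Arpp21 probe sets were highest in DN3. Signals of 1440429_at were 94.1, 164, 159 and 126 in DN2, 214, 353, 289 and 259 in DN3, and 42.1, 71.2, 125 and 79.5 in DN4. Every DN3 array lay above every DN2 and DN4 array, and within each sort DN4 was below DN2. DN4 was below DN3 by -1.81 ± 0.28 (adjusted p = 0.00214, 3.51-fold). DN3 was above DN2 by 1.02 ± 0.28 (adjusted p = 0.0490, 2.03-fold), a call that held in 2 of the 12 fits that left out 1 array (highest adjusted p = 0.134), was lost without normalization (adjusted p = 0.0534) and had an adjusted p of 0.00654 with the sort as a block. The DN4 to DN2 difference of -0.79 ± 0.28 did not pass (adjusted p = 0.0550) and passed with the block (adjusted p = 0.00723).

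Signals of 1424248_at were 489, 838, 1080 and 631 in DN2, 730, 1750, 2010 and 1070 in DN3, and 418, 610, 801 and 484 in DN4. Within each sort DN3 was the highest stage and DN4 the lowest, although the stages overlapped between sorts. DN4 was below DN3 by -1.19 ± 0.34 (adjusted p = 0.0414), a call that held in 4 of the 12 fits that left out 1 array (highest adjusted p = 0.123) and had an adjusted p of 0.000485 with the block. DN3 was above DN2 by 0.82 ± 0.34 (adjusted p = 0.187, or 0.00314 with the block). The DN4 to DN2 difference of -0.37 ± 0.34 (adjusted p = 0.453) had an adjusted p of 0.0352 with the block.

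Signals of 1451280_at were 56.6, 116, 81.8 and 79.1 in DN2, 138, 225, 194 and 116 in DN3, and 65.8, 86.5, 103 and 48.6 in DN4. The lowest DN3 array, sort 4, equalled the highest DN2 array, sort 2, to 3 digits, and all DN4 arrays lay below all DN3 arrays. DN4 was below DN3 by -1.09 ± 0.27 (adjusted p = 0.0248). That call was lost without DN3 sort 2, DN3 sort 3, DN4 sort 1 or DN4 sort 4, with adjusted p-values of 0.0631 to 0.0815. DN3 was above DN2 by 0.96 ± 0.27 (adjusted p = 0.0559, or 0.00653 with the block), and DN4 and DN2 differed by -0.13 ± 0.27 (adjusted p = 0.761). In the platform annotation 1424248_at and 1451280_at are assigned to the same transcript accession.

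**Figure D3:**
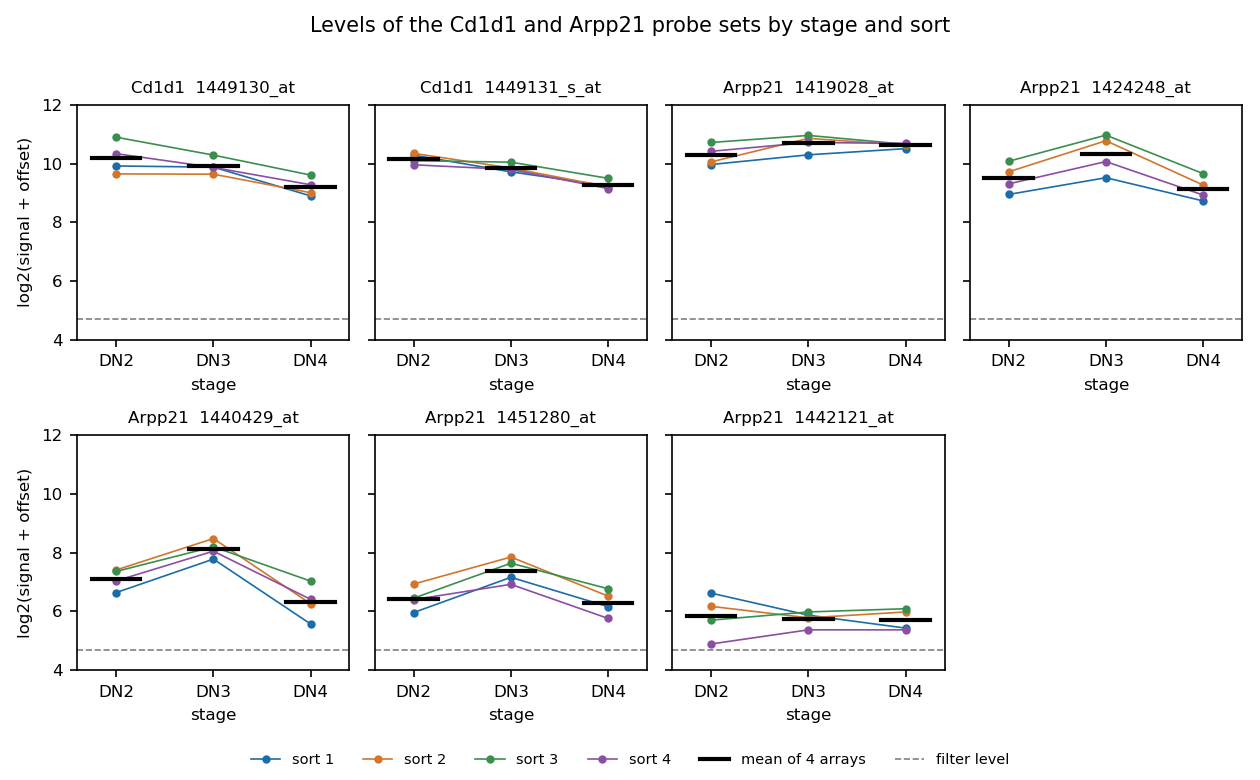
Level of each Cd1d1 and Arpp21 probe set as log2(signal + offset) (y axis) in DN2, DN3 and DN4; thin coloured lines join the 3 arrays of a sort, black bars are means of 4 arrays and the dashed line is the filter level of 4.70. Arpp21 1424248_at, 1440429_at and 1451280_at peak in DN3 in every sort, while 1419028_at and 1442121_at do not.

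The swing of the peaking Arpp21 probe sets was tested by the same contrast of steps. It was -2.83 ± 0.49 for 1440429_at (adjusted p = 0.00961) and -2.05 ± 0.47 for 1451280_at (adjusted p = 0.0391), which were called as lower, where 1.82% of all tested were called lower. The second of these held in 3 of the 12 fits that left out 1 array, with an adjusted p of up to 0.152. For 1424248_at it was -2.01 ± 0.58 and did not pass (adjusted p = 0.0976), but passed with the block (adjusted p = 0.00154). For 1419028_at it was -0.51 ± 0.32 (adjusted p = 0.511). Correlations between Arpp21 probe sets over the 12 arrays ran from -0.38 to 0.89, and were 0.85 to 0.89 among the 3 that peaked. The 5 probe sets may match different transcripts of the gene, which was not tested. The log2 ratio of 3′ to 5′ signal of the Gapdh control was 1.10 to 1.82 in DN2, 0.88 to 1.26 in DN3 and 1.02 to 1.46 in DN4. That of the actin control was 0.91 to 1.10, 0.84 to 0.99 and 0.84 to 1.04. The part of RNA quality in the differences between probe sets was not tested.

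With the sort as a block, the calls among the 15 probe sets were 5 higher and 0 lower between DN3 and DN2, where 14.8% of all tested were called and 7.47% called higher. They were 6 higher and 5 lower between DN4 and DN3, where 23.2% were called, 10.8% as higher and 12.3% as lower. The DN3 to DN2 additions were Cd8a 1425335_at and Arpp21 1424248_at and 1451280_at, and all 3 were higher in DN3. By range alone, 3 of the 15 lay wholly above DN2 in DN3, where 14.6% of all tested did not overlap and 7.32% lay above, and 6 lay above and 4 below DN3 in DN4, where 20.2% did not overlap, 10.2% above and 9.97% below.

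The genes whose levels most resembled each member over the 12 arrays are given as a description, among 11175 other genes each represented by its brightest probe set. Cd8a was most like Cd2, an adhesion molecule of T cells (r = 0.970), followed by Aimp1, Tubb2a, Prdx4 and Dusp10 (r of 0.959 to 0.963). Mean log2 values of Cd2 were 3.57 in DN2, 5.17 in DN3 and 7.62 in DN4, against 3.78, 4.95 and 7.28 for Cd8a. Cd8b1 was most like 2700038G22Rik, Lsm2, Trav9d-3, Mrpl20 and Tubb2a (r of 0.969 to 0.975). Trav9d-3 is a T cell receptor alpha variable gene, with means of 5.36 in DN2, 6.06 in DN3 and 7.69 in DN4.

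Cd1d1, by 1449130_at, was most like Jun, a subunit of the AP-1 transcription factor (r = 0.951), followed by Marcks, Mir22hg, Pde4b and Zfp362 (r of 0.934 to 0.938). Mean log2 values of Jun were 8.90 in DN2, 8.97 in DN3 and 7.26 in DN4. Arpp21, by 1419028_at, was most like Tnfaip3, an inhibitor of NF-kappaB signalling (r = 0.922), followed by Csrnp1, Coq10b, Maff and Ankrd26 (r of 0.884 to 0.907). These values share arrays, stages and pools, so that any gene with the same order of stages scores high.

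Among 20 regulators of the CD4 and CD8 genes, 19 were tested. Between DN4 and DN3, 1 was higher and 2 were lower, with a list median of 0.01, where 11.2% of all probe sets were called. With the sort as a block 2 were higher and 5 lower, where 23.2% of all were called. Runx1, whose protein binds the Cd4 silencer, fell by 1.10 ± 0.17 (adjusted p = 0.00181). Patz1, a zinc-finger factor also known as MAZR that represses Cd8 in DN thymocytes, fell by 1.38 ± 0.14 (adjusted p = 0.000167). Ikzf3, the Ikaros relative Aiolos, rose by 1.71 ± 0.33 (adjusted p = 0.00734). Runx3, the Runx factor of CD8 lineage cells, differed by -0.62 between DN4 and DN3 (adjusted p = 0.109, or 0.0237 with the block).

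At the earlier step 2 of the 19 regulators were higher in DN3 and 1 was lower (4 and 2 with the block), where 7.11% of all probe sets were called (14.8% with the block). Lef1, an HMG-box factor of the TCF family, rose by 3.47 ± 0.14 (adjusted p = 1.28e-07) and Ikzf3 by 2.19 ± 0.33 (adjusted p = 0.00186). Runx3 fell by 1.68 ± 0.23 (adjusted p = 0.000963), while Runx1 differed by -0.31 ± 0.17 (adjusted p = 0.326). Over both steps 3 were higher in DN4 than in DN2 and 3 lower, among them Gata3 by 0.72 ± 0.19 (adjusted p = 0.0165), a call lost without DN4 sort 1 (adjusted p = 0.0504). Zbtb7b, which encodes the CD4-lineage factor ThPOK, was not called in any comparison, with a difference of 0.58 between DN3 and DN2, -0.43 between DN4 and DN3 and 0.14 between DN4 and DN2.

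Among 20 further genes listed for the double-positive stage, 18 were tested. They include Dntt, highest in DN2 (mean log2 13.00), and Rag1 and Ptcra, highest in DN3 (12.18 and 9.18). A rise in this list therefore does not mark the onset of that stage. Between DN3 and DN2, 7 were higher and 0 lower (list median 0.59), where 3.15% of all probe sets were called higher. They included Camk4, a calcium-dependent kinase (3.14 ± 0.24, adjusted p = 9.36e-06), Sh2d1a, the adaptor SAP (2.55 ± 0.18, adjusted p = 6.73e-06), Rag1 of the V(D)J recombinase (2.17 ± 0.15, adjusted p = 4.65e-06) and the ETS factor Ets2 (2.14 ± 0.19, adjusted p = 3.23e-05). At the later step 4 were higher in DN4 and 1 was lower (list median 0.14), where 4.41% of all were called higher. With the block 5 were higher and 3 lower, where 10.8% of all were called higher and 12.3% lower. Cd2 rose by 2.45 ± 0.33 (adjusted p = 0.000917), Cd6, a T cell surface receptor, by 1.29 ± 0.14 (adjusted p = 0.000285) and Camk4 by 1.40 ± 0.24 (adjusted p = 0.00378), while Rag1 fell by 0.76 ± 0.15 (adjusted p = 0.00719).

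The contrast of steps was lower for 5 of these 18 genes and higher for 0, with a list median of -0.52, where 0 means equal steps. Of all probe sets tested, 2.90% were called in this contrast, 1.82% as lower. The contrast was -2.93 ± 0.25 for Rag1 (adjusted p = 0.000109) and -1.86 ± 0.32 for Sh2d1a (adjusted p = 0.00961). For Ptcra, the invariant chain of the pre-T cell receptor, it was -3.44 ± 0.63 (adjusted p = 0.0145), a call lost without DN3 sort 2 (adjusted p = 0.0656) or DN3 sort 3 (adjusted p = 0.0592). Over both steps 9 of the 18 were higher and 1 lower (list median 0.70), where 27.1% of all probe sets were called and 14.1% called higher. The lower one was Dntt, which adds untemplated bases at V(D)J joints (-0.42 ± 0.11, adjusted p = 0.0130).

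**Figure D4:**
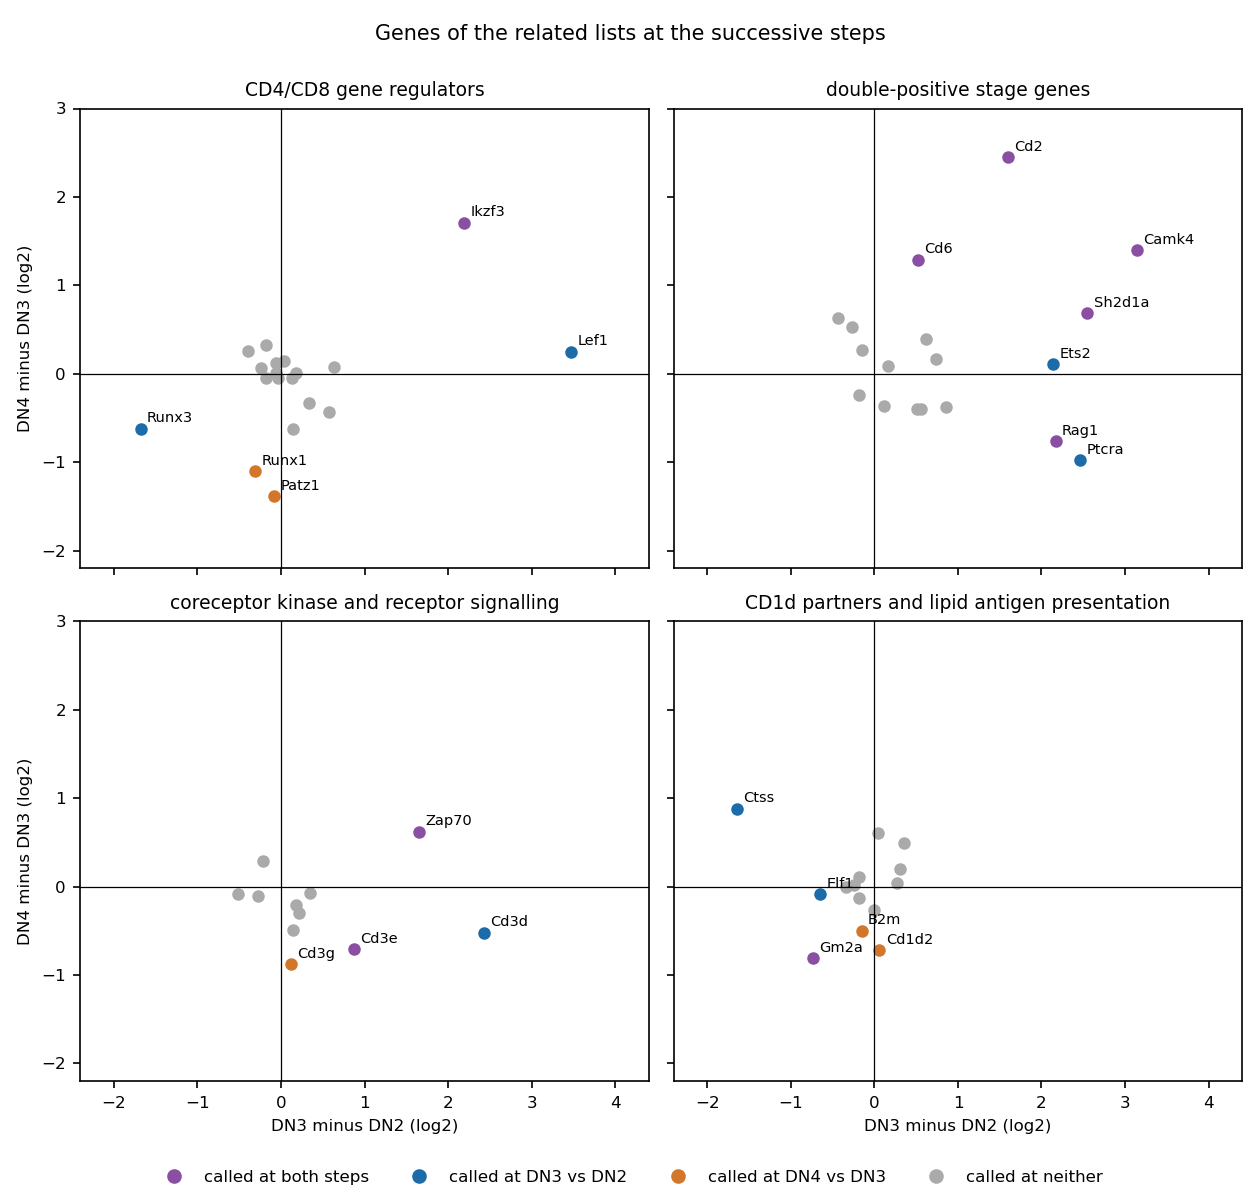
Log2 difference of DN3 minus DN2 (x axis) against DN4 minus DN3 (y axis) for the tested genes of 4 related lists; each point is 1 gene by its brightest probe set, coloured by the comparisons in which it was called. Both axes share the DN3 arrays with opposite sign, so the position of points shows each gene's own values and not a relation between the steps. Cd2 has the highest y value (2.45), and Lef1 and Camk4 have the highest x values (3.47 and 3.14).

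Genes of coreceptor and receptor signalling were tested for 11 of 12, and Lck, the kinase that binds CD4 and CD8, was not analysed here. Zap70, the kinase recruited to phosphorylated CD3 chains, rose at both steps, by 0.62 ± 0.12 between DN4 and DN3 (adjusted p = 0.00625) and by 1.65 ± 0.12 between DN3 and DN2 (adjusted p = 5.91e-06). The DN4 to DN3 call of Zap70 was lost with arrays centred on their median and without normalization. Of the 11, 1 was higher in DN4 than in DN3 and 2 were lower, where 4.41% of all probe sets were called higher and 6.82% lower. Cd3g fell by 0.88 ± 0.11 (adjusted p = 0.000505), and Cd3e by 0.71 ± 0.17 (adjusted p = 0.0193), a call lost without DN3 sort 2 (adjusted p = 0.0592) or DN4 sort 4 (adjusted p = 0.0591). At the earlier step 3 were higher and 0 lower, where 7.11% of all probe sets were called and 3.15% called higher. Cd3d was up by 2.43 ± 0.20 (adjusted p = 1.35e-05).

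Among genes of the CD1d complex and of lipid antigen presentation, 14 of 15 were tested. Between DN4 and DN3, 0 were higher and 3 lower (2 and 3 with the block), where 11.2% of all probe sets were called (23.2% with the block). The 3 lower ones were B2m, Gm2a and Cd1d2. The annotation lists Cd1d2 as a transcribed pseudogene, and its signal may be shared with Cd1d1. B2m, the light chain shared by CD1d and MHC class I, differed by -0.50 ± 0.13 (adjusted p = 0.0246), a call that held in 7 of the 12 fits that left out 1 array and was lost with arrays centred on their median. Gm2a, the GM2 activator that handles glycolipids in lysosomes, fell by 0.81 ± 0.14 between DN4 and DN3 (adjusted p = 0.00424) and by 0.74 ± 0.14 between DN3 and DN2 (adjusted p = 0.00749). At the earlier step 0 were higher and 3 lower, where 7.11% of all probe sets were called. The lower ones included the ETS factor Elf1 (-0.65 ± 0.15, adjusted p = 0.0234), a call that held in 7 of the 12 fits. In DN4 relative to DN2, 2 were higher and 5 lower (3 and 7 with the block), where 27.1% of all probe sets were called. The higher ones were Ctsl, a lysosomal protease (0.85 ± 0.17, adjusted p = 0.00297), and Pdia3, a chaperone of the endoplasmic reticulum (0.51 ± 0.12, adjusted p = 0.00959). Of 6 genes related to Arpp21 (the small phosphoproteins Arpp19, Ensa and Ppp1r1b and the R3H-domain genes R3hdm1, R3hdm2 and R3hdm4), 0 were called at either step. Between DN4 and DN2 Ppp1r1b was higher by 1.49 ± 0.47 (adjusted p = 0.0353), which held in 6 of the 12 fits.

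The stages carried the transcripts used for the sort. Cd44 had mean log2 values of 9.44 in DN2, 5.75 in DN3 and 5.62 in DN4, and Il2ra, which encodes CD25, had 11.20, 10.46 and 6.90. The summed signal of 10 B cell markers was 4470 to 4940 in DN4, against 2850 to 3090 in DN3 and 2280 to 3550 in DN2, with Ebf1 and Cr2 below the filter level on all 12 arrays. Most of that sum is Ighm, the heavy chain of IgM, at a mean log2 value of 12.10 in DN4, against 11.38 in DN3 (0.72 ± 0.15, adjusted p = 0.00986). Of 5 tested, Ms4a1 was higher too (1.31 ± 0.36, adjusted p = 0.0356), while Cd79b differed by -0.39 ± 0.17 (adjusted p = 0.154, or 0.0158 with the block). Markers of mature alpha-beta T cells, which carry CD4 or CD8, summed to 654 to 977 in DN4, against 1050 to 1350 in DN3 and 1960 to 2540 in DN2. Of 7 tested, 1 was called between DN4 and DN3, where 11.2% of all probe sets were called. That was Il7r, the interleukin-7 receptor, which was lower (-1.05 ± 0.14, adjusted p = 0.000908). It was the brightest of these markers at each stage and weighs most in the sum. Klf2 differed by 1.06 ± 0.42 (adjusted p = 0.130) and Ccr7 by 1.03 ± 0.35 (adjusted p = 0.0819, or 0.0231 with the block). With the sort as a block 1 of the 7 was higher in DN4 and 1 lower, where 23.2% of all probe sets were called. The part of B cell or mature T cell transcripts in the member values was not tested.

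Some dendritic cells also carry CD8 alpha or CD4, and MHC class II transcripts differed between stages and sorts. Over 11 dendritic cell markers the summed signal was 469 to 1260 in DN4, against 365 to 585 in DN3 and 510 to 1040 in DN2. Of 6 such genes tested, Cd74, the invariant chain of class II, was higher in DN4 than in DN3 by 1.12 ± 0.27 (adjusted p = 0.0229). With the sort as a block 4 of them were higher, where 10.8% of all probe sets were called higher. Log2 values of H2-Aa were 5.72, 8.28, 8.53 and 8.68 in DN4, against 5.60, 6.11, 6.72 and 6.62 in DN3. After normalization the DN4 array of sort 1, with the lowest H2-Aa of the DN4 arrays, had their highest signal on all 5 Cd8a probe sets and the lowest on Cd8b1 (241). Before normalization sort 3 was higher than sort 1 on 1444078_at (115 against 101) and 1440164_x_at (65.1 against 59.6). Both were at 47.3 on 1451673_at, so this order depends on the normalization. Itgax, which encodes the dendritic cell integrin CD11c, had log2 values of 3.39 to 3.76 in DN4, all below the filter level, against 3.36 to 4.64 in DN3 and 5.66 to 6.42 in DN2. The part of dendritic cell transcripts in the member values was not tested.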

How the data were processed

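Thymocyte RNA of 3 stages was measured on 12 one-colour Affymetrix mouse arrays after amplification over 2 cycles of cDNA synthesis, per the labels. The values deposited by the authors are intensity per probe set on a linear scale. GCOS was used to make them, per the submitters' processing notes, and its version is not given in the sources used here. Precision is limited by the number of arrays.

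The 64 control probe sets were left out. Signals were quantile normalized, and log2(signal + 5.56) was taken, the offset being the table's 25th percentile. Probe sets above the table-wide median (log2 4.70) on at least 4 arrays were kept. A model of stage means over the 12 arrays was fitted in R 4.3.3 with limma 3.58.1, with two-sided tests and p-values adjusted by Benjamini-Hochberg over the 24132 probe sets kept. A contrast of the later with the earlier step tested their difference. Probe sets below the filter were compared by exact permutation of 4 against 4 arrays. Fold changes are on the log2(signal + offset) scale, which understates those of dim probe sets.

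GEO's platform annotation gave 1 symbol for 34958 probe sets and several for 932, and did not list 9211. Symbols of 34754 were updated to the RefSeq annotation of GRCm38.p6 and 204 kept the older symbol. In the lists each gene stands for its probe set of highest mean signal.

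The member genes and the lists were chosen with earlier results of these data known. Named were all member probe sets, up to 4 called genes per list and comparison with the smallest adjusted p, 7 regulators and partners whatever their values, the 5 genes most like each member, neighbouring genes and the brightest markers, of which only part is printed.

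Per the labels, arrays of the same number share a cell source. Residuals about the stage means had r of 0.249 to 0.389 within a sort and of -0.250 to 0.142 between sorts. The sort as a block was therefore fitted as an alternative. Within stages arrays correlated at 0.960 or more, and 0 pairs were identical. Other alternatives were median centring, no normalization, an offset of 1, no filter, a filter at the 75th percentile, 1 probe set per gene, only the 8 arrays compared, sorts 1 and 2 or 3 and 4 alone, and leaving out each array in turn. The fit was tested on simulated data. Sequences were read from RefSeq tables (GRCm38.p6), and plots were made in Python 3.11.15 (pandas 2.3.3, matplotlib 3.10.9).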

Additional observations from a re-analysis of the deposited data

Results flagged for a closer look

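Among 45 groups of 4 arrays (15 probe sets at 3 stages), 1 held an array that stood apart from the other three. Cd8a probe set 1444078_at had a log2 value of 4.50 in sort 2 of DN2, against 4.17 to 4.21 in the other DN2 arrays. All 4 values lie below the filter level, and chance marks about 1 in 20 such groups.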

How the results depend on the processing

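Of the tests of member probe sets under the alternatives, 944 kept their side of the threshold, 104 lost and 19 gained the call. Among tests called in the main or the alternative fit, 0 reversed direction. Direction was not compared for tests called in neither. Called member probe sets numbered 2 for DN3 against DN2, 10 for DN4 against DN3, 8 for DN4 against DN2 and 6 for the contrast of steps. The first became 1 without normalization, with an offset of 1 or without a filter, 5 with the sort as a replicate block, and 0 in sorts 1 and 2 alone and in sorts 3 and 4 alone. The second became 6 without a filter, 4 with a filter at the 75th percentile, 0 in sorts 1 and 2 and 4 in sorts 3 and 4. The third became 4 with the stricter filter and 5 in sorts 3 and 4. The fourth became 3 without a filter, 2 with the stricter filter and 0 in either pair of sorts. Keeping 1 probe set per gene left 1, 2, 3 and 1. Leaving out 1 array at a time gave 0 to 2, 6 to 10, 8 to 9 and 4 to 5. Without normalization the contrast of steps was higher for 1 and lower for 3 member probe sets, in place of 4 and 2. The block changed no other member count by over 1.5 times. Causes were not tested, except that fewer probe sets or arrays enter some settings by construction.

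Over all probe sets the reported counts were 1715, 2710, 6541 and 701 in the same order. They became 769 and 5177 for the single steps without normalization (53 higher and 5124 lower for DN4 against DN3, in place of 1065 and 1645), 1008, 1376 and 299 (contrast) without a filter, 3568, 5591 and 1941 (contrast) with the replicate block, and 3867 for DN4 against DN2 with 1 probe set per gene. Sorts 1 and 2 gave 195, 45, 2275 and 0, and sorts 3 and 4 gave 333, 174, 2927 and 0. Leaving out 1 array gave 1145 to 1679, 1425 to 2796, 5110 to 6444 and 286 to 580.

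Signals of Cd4, of Cd8b1 in DN2 and DN3 and of the Cd8a probe sets in DN2 and DN3 lie near or below the filter level, so sizes of their differences depend on the offset. With an offset of 1 the Cd8b1 contrast of steps was 1.80 (adjusted p = 0.369).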

Other observations

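Genes beside the members in the RefSeq annotation were compared in the same way. Of 16 neighbouring genes with a probe set, 9 passed the filter. Between DN3 and DN2, 0 of the 9 were called, where 7.11% of all probe sets were called. Between DN4 and DN3, 0 were higher and 2 were lower, where 11.2% of all probe sets were called. The lower ones were Cd1d2 beside Cd1d1 and Rnf103 near Cd8a (-0.68 ± 0.15, adjusted p = 0.0139 by limma). Rmnd5a, the neighbour of Cd8a on the side away from Cd8b1, differed by 0.48 ± 0.14 between DN4 and DN3 (adjusted p = 0.0505). In DN4 relative to DN2, 3 of the 9 were higher and 2 lower, where 27.1% of all probe sets were called. The higher ones were Rmnd5a (0.56 ± 0.14, adjusted p = 0.0124), Krcc1 (0.47 ± 0.15, adjusted p = 0.0388) and Dclk2 (0.64 ± 0.20, adjusted p = 0.0363), and the lower ones were Rnf103 (-0.81 ± 0.15, adjusted p = 0.00210) and Cd1d2. Gpr162, the nearest neighbour of Cd4, differed by 0.94 ± 0.34 between DN4 and DN2 (adjusted p = 0.0629), and Lag3, on the other side of Cd4, lay below the filter.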
